A study of Homo sapiens with 6 samples.

Results

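The mitochondrial ribosomal proteins are the protein part of the ribosome that works inside mitochondria. The members described here are all protein-coding genes whose symbol begins with MRPL or MRPS followed by a digit, 78 of the 58174 genes in the deposited table. The mitochondrial ribosome, or mitoribosome, translates the few messages of mitochondrial DNA, all of which encode membrane subunits of the respiratory chain and the ATP synthase. It has a large subunit, which joins amino acids and lets the new chain out through an exit tunnel, and a small subunit, which decodes the messenger RNA. Its RNAs are transcribed from mitochondrial DNA, while its proteins are encoded in the nucleus, made in the cytosol and imported. Some of these proteins have a counterpart in bacterial ribosomes and others are specific to mitochondria.

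Total RNA was sequenced in 6 libraries labelled as AGS cells, an established human gastric adenocarcinoma line. In the si-NC group, 3 libraries came from cells given a control siRNA, and their genotype label is wild type. In the si-FTO group, 3 libraries came from cells depleted of FTO, an RNA demethylase of the AlkB family, with an siRNA, although their genotype label reads FTO-/-. The comparison addresses how the transcriptome differed with and without FTO. Levels are in TPM, a gene's share of all transcripts after correction for transcript length, scaled to the same total in every library, so that levels of different genes can be set side by side. The table used holds 1 mean TPM per group, with 0.0001 in place of 0. From these means the error between libraries and the sequencing depth are unknown, and no test could be run on them. The deposited p-values were not used, and every difference below is a difference between a pair of means.

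FTO itself had a mean of 33.1 TPM in si-NC against 7.27 TPM in si-FTO, 21.9% of the control level. Its log2 ratio was -2.05. All ratios are si-FTO over si-NC on the log2(TPM + 1) scale, so a negative value means a lower level in si-FTO. Where 2 levels of a gene follow each other, si-NC comes first. The lower level was in the group labelled as depleted. A mean level does not tell an siRNA from a gene disruption.

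The cell type label was checked against marker genes, and the 2 groups differed strongly in them. Of 6 epithelial markers, KRT8 had 10.8 TPM in si-NC against 3139 TPM in si-FTO, and KRT18 had 52.1 and 1851 TPM. The other epithelial markers were scarce in both groups: EPCAM had 1.22 and 0.113 TPM, CDH1 had 3.67 and 0.685 TPM, CLDN4 had 0.226 and 2.70 TPM, and KRT19 was listed at 0 in si-NC and at 0.130 TPM in si-FTO. The 6 epithelial markers summed to 68.0 TPM in si-NC against 4994 TPM in si-FTO. Markers of the gastric mucosa were nearly absent, with sums over 6 genes of 0.653 and 1.23 TPM, CLDN18 as the most abundant, and TFF1 and GKN1 listed at 0 in both groups.

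Markers of other cell types also differed. The 5 fibroblast markers summed to 15.8 and 44.6 TPM, with COL1A1 the most abundant at 10.3 and 36.4 TPM. PDGFRB was also higher in si-FTO, with 0.370 and 5.34 TPM, whereas COL3A1 had 2.18 and 0.361 TPM, LUM had 2.95 and 2.52 TPM, and COL1A2 was listed at 0 in si-FTO. Of 3 endothelial markers, the 2 found summed to 0.0132 and 41.0 TPM, with CDH5 the most abundant at 0.00827 and 40.9 TPM. Among leukocyte markers, PTPRC was listed at 0 in both groups, CD3E had 0.0129 TPM and was listed at 0 in si-FTO, and CD14 had 0.631 and 0.249 TPM. Across the autosomes, 180 of 18740 protein-coding genes were under 0.5 TPM in si-NC and at 10 TPM or more in si-FTO, and 268 showed the reverse. Whether all 6 libraries come from the same cell line cannot be told from these means, and every ratio is to be read with that limit. Any difference between the cultures other than FTO cannot be told apart from the depletion, and the part of these marker differences in the results below was not tested. In bulk RNA, fewer cells of a type and less RNA per cell cannot be told apart either.

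Every mitoribosomal protein gene was well expressed in both groups. All 78 had at least 10 TPM in each group, and 0 were listed at 0. Levels ran from 20.6 TPM for MRPL42 to 355 TPM for MRPL12 in si-NC, a 17.2-fold range. In si-FTO they ran from 12.2 TPM for MRPL1 to 244 TPM for MRPL12, a 19.9-fold range. The protein products occur in fixed proportions in the particle, MRPL12 excepted, whose copies form the flexible stalk, so the order of transcript levels is not an order of protein levels. Ranked by level, the members kept much of their order between groups, with a Spearman rho of 0.866 across 78 genes. Over 14176 protein-coding genes the same rho was 0.803. These values describe genes measured in the same libraries, and genes are not independent replicates.

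By the mean of both groups, the most abundant members were MRPL12, with 355 and 244 TPM, MRPL20, with 305 and 210 TPM, and MRPS34, with 275 and 197 TPM. MRPL28 followed with 296 TPM in si-NC against 159 TPM in si-FTO, and MRPL51 with 196 and 220 TPM. Of these 5, MRPL51 was the exception in having the higher mean in si-FTO. At the other end of that order stood MRPL1, with 25.4 and 12.2 TPM, MRPL50, with 24.4 and 16.1 TPM, and MRPS36, with 21.7 and 24.3 TPM. MRPS31 had 30.1 and 17.6 TPM, and MRPS23 had 28.8 and 19.7 TPM. MRPS36 is an unusual member, since its product is better known as a subunit of the 2-oxoglutarate dehydrogenase complex.

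**Figure D1:**
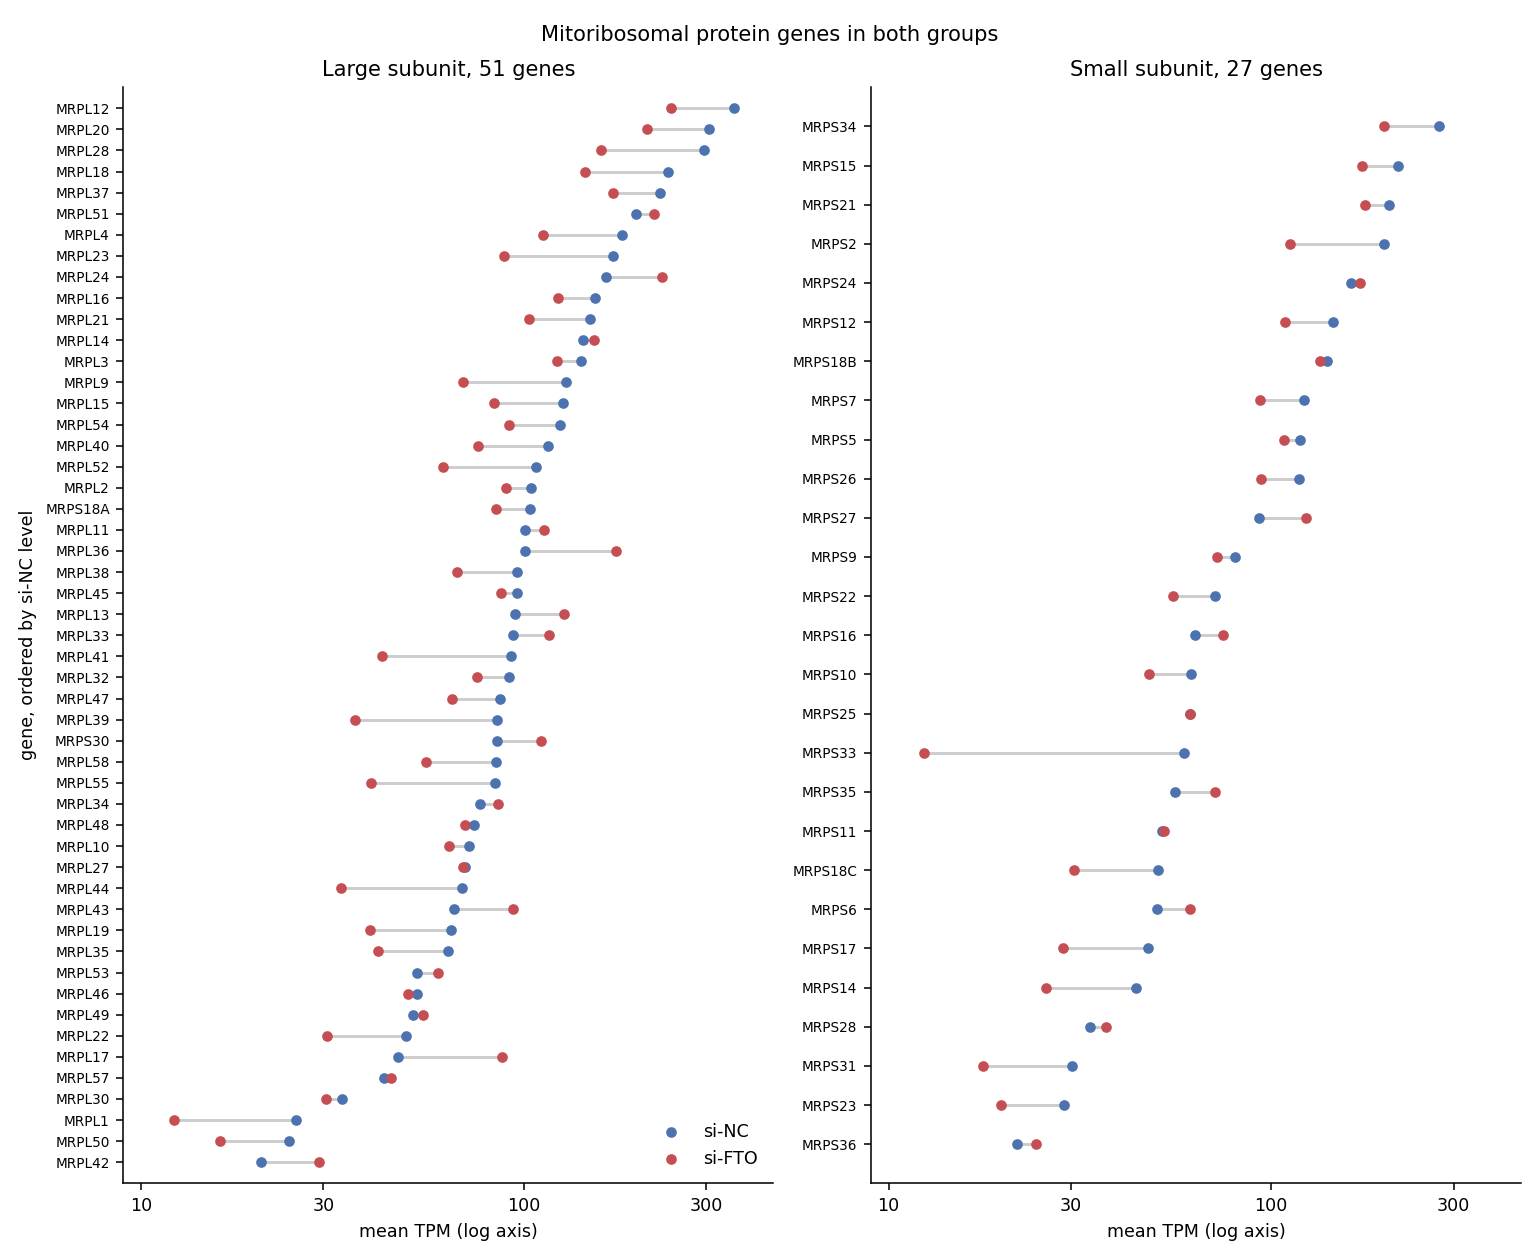
Mean TPM of each of the 78 mitoribosomal protein genes on a log axis, si-NC in blue and si-FTO in red, with 51 genes of the large subunit on the left and 27 of the small subunit on the right, ordered by the si-NC level. MRPL12 is the highest in both groups, and the longest line belongs to MRPS33, with 59.4 TPM in si-NC against 12.4 TPM in si-FTO.

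Taken as a whole, the module had a slightly lower level in si-FTO. The summed TPM of the 78 genes was 8289 for si-NC against 6849 for si-FTO, or 0.829% and 0.685% of all TPM, a log2 ratio of sums of -0.28. The median log2 ratio of the members was -0.31, with 55 below 0 and 23 above 0. The median over all 20493 genes compared, those with a mean of at least 0.5 TPM in at least 1 group, was itself -0.20. Against that median, 45 members lay below and 33 above. Scaling both groups to a common median ratio removes a shift of -0.21. The median of the members was then -0.10, against -0.03 for all genes compared, with 44 members below 0 and 34 above. With quantile normalization, which gives both groups the same spread of levels, it was -0.34, against -0.07 for all genes compared. In that case 54 members lay below 0 and 23 above.

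Most members differed by less than 1.5-fold, and the balance between higher and lower ones depended on the scaling. At least 1.5-fold higher were 2 of 78, MRPL17 and MRPL36, or 2.56%, where 18.8% of all genes compared passed that threshold. At least 1.5-fold lower were 23 of 78, or 29.5%, near the 31.2% of all genes compared. Of the 8150 genes that, like the members, had at least 10 TPM in both groups, 14.4% were higher and 21.3% lower. Against these genes the lower members were the larger share. After median-ratio scaling, 8 members were higher, against 23.4% of all genes, and 11 were lower, against 25.1%. Quantile normalization gave 2 higher members (2.56%), against 23.2% of all genes, and 25 lower (32.1%), against 25.9%. At a 2-fold threshold on the deposited scale, 0 members were higher, against 11.4% of all genes, and 5 were lower (6.41%), against 17%. Among the 8150 genes with at least 10 TPM in both groups, 7.39% were higher and 7.35% lower, so the lower share of the members was near theirs. With a pseudocount of 0.1, an alternative chosen after seeing the data, 6 members were at least 2-fold lower, against 25.1% of all genes. MRPL1 then passed as well. With median-ratio scaling at 2-fold, a combination also chosen after seeing the data, 1 member was higher, MRPL17, against 13.6% of all genes, and 1 was lower, MRPS33, against 14.1%. In all, 53 members, or 67.9%, differed by less than 1.5-fold, near the 64.3% of the 8150 genes that, like the members, had at least 10 TPM in both groups.

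The log2 ratios of the members had an interquartile range of 0.69, compared with 0.81 for those 8150 genes. The 83 cytosolic ribosomal protein genes compared, which encode the proteins of the main ribosome of the cell, had an interquartile range of 0.65. Their median was -0.06 as deposited and 0.15 after median-ratio scaling, so their direction depends on the scaling. Of these 83 genes, 4 were at least 1.5-fold higher (4.82%) and 14 lower (16.9%), against 18.8% and 31.2% of all genes compared. After median-ratio scaling 10 were higher and 8 lower, against 23.4% and 25.1% of all genes compared. Within the mitoribosomal set, log2 ratio and level were almost unrelated, with a Spearman rho of 0.09 across the 78 genes.

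**Figure D2:**
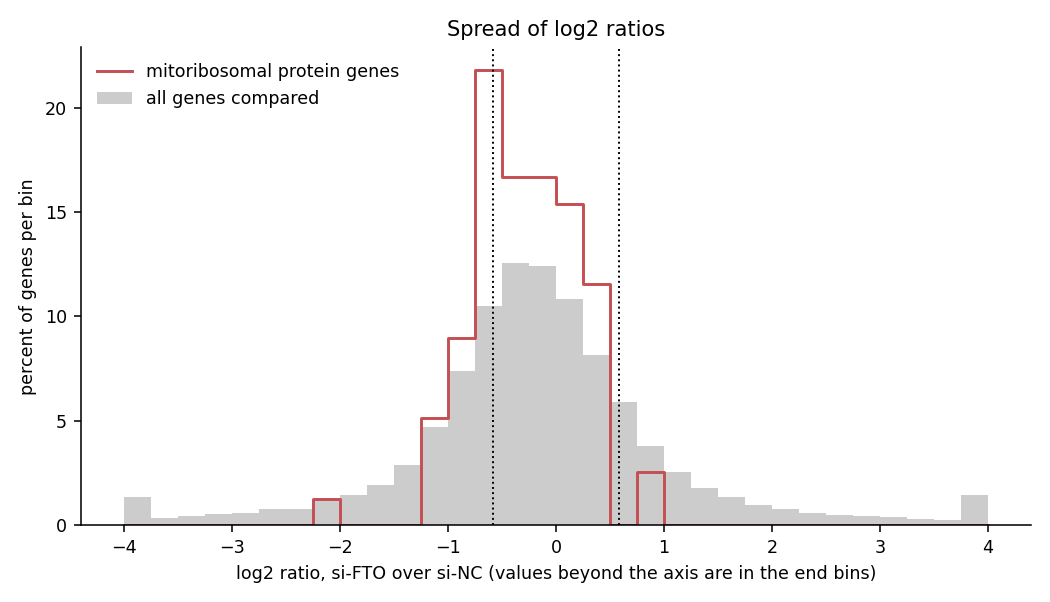
Distribution of log2 ratios, si-FTO over si-NC, as percent of genes per bin, with 20493 genes compared in grey and the 78 mitoribosomal protein genes as a red line. Dotted lines mark a 1.5-fold difference, and 53 of the 78 members lie between them.

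The member with the largest difference was MRPS33 (ENSG00000090263), which encodes a mitochondria-specific protein of the small subunit. It had 59.4 TPM in si-NC against 12.4 TPM in si-FTO, 20.9% of the control level and a log2 ratio of -2.17. In rank by level it went from position 58 of 78 to position 77. The other 4 members at least 2-fold lower with the pseudocount of 1 belong to the large subunit, as does MRPL1, which had 48.2% of the si-NC level and passed only with a smaller pseudocount. MRPL39 (ENSG00000154719) had 85.3 and 36.4 TPM (log2 ratio -1.21). MRPL41 (ENSG00000182154) had 93.0 and 42.6 TPM (log2 ratio -1.11). Both encode proteins specific to the mitochondrial ribosome. MRPL55, the counterpart of a bacterial protein, had 84.3 and 39.9 TPM (log2 ratio -1.06). MRPL44, whose protein has a ribonuclease III fold, had 69.2 and 33.3 TPM (log2 ratio -1.03). With median-ratio scaling MRPS33, at -1.97, was still at least 2-fold lower, while the other 4 passed 1.5-fold but not 2-fold.

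On the other side, MRPL17 (ENSG00000158042), the counterpart of bacterial L17, had 47.1 TPM in si-NC against 88.1 TPM in si-FTO (log2 ratio 0.89). MRPL36 (ENSG00000171421), the counterpart of the small bacterial protein L36, had 101 and 175 TPM (log2 ratio 0.78). Its rank by level moved from position 32 to position 7. Smaller positive values were found for MRPL43 (0.50), MRPL24 (0.49), MRPL42 (0.49), MRPL13 (0.42), MRPS27 (0.40) and MRPS30 (0.38). These 6 were under 1.5-fold as deposited and passed it after median-ratio scaling. Despite its symbol, MRPS30 encodes a protein of the large subunit.

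Promoter sequences of these members are given because the genes share a function and are dispersed over 21 chromosomes. Promoters of 300 bases, from 250 before to 50 after the gene start, were taken from RefSeq on the GRCh38.p14 build and found for 69 of the 78 members. They were searched on both strands for 3 short motifs named after factors known at promoters of mitochondrial genes: GCGCANGCG for NRF1, CCGGAAG for ETS factors and AAGATGGC for YY1. The NRF1 motif is nearly the same on both strands, so its matches can overlap. Capitals mark matches, and each sequence is written from 5′ to 3′ on the strand of its gene. The lowest of the members, MRPS33 (minus strand, chr7:141014903-141015202), had an NRF1 and an ETS match:
MRPS33: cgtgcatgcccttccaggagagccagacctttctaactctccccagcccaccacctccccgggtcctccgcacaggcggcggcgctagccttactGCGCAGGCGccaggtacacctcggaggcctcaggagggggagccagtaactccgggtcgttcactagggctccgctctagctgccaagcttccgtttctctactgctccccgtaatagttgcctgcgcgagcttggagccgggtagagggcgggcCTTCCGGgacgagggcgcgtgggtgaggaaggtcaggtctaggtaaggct
Neither MRPL39 (minus strand, chr21:25607432-25607731) nor MRPL41 (plus strand, chr9:137551629-137551928) had a match, and the MRPL41 sequence begins with GC-rich repeats:
MRPL39: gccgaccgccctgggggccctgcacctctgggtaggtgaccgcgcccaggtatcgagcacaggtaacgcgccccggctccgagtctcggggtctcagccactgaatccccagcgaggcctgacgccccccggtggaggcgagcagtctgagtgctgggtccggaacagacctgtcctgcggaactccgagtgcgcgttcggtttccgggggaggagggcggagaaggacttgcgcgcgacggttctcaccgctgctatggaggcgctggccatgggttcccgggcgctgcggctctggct
MRPL41: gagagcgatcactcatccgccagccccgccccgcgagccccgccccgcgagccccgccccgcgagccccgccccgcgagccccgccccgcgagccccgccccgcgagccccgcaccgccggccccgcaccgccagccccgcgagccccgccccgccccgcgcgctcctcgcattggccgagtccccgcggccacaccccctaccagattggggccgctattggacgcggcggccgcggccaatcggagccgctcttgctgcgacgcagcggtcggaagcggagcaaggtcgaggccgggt
Of the higher members, MRPL17 (minus strand, chr11:6683291-6683590) had 3 NRF1 matches, a pair of them overlapping, and MRPL36 (minus strand, chr5:1799788-1800087) had an NRF1 and a YY1 match:
MRPL17: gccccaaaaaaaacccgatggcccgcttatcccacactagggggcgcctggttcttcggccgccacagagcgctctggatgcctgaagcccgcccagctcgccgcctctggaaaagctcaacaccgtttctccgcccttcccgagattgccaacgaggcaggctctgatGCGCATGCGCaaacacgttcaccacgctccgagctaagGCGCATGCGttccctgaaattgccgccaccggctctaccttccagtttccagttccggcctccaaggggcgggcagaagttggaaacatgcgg
MRPL36: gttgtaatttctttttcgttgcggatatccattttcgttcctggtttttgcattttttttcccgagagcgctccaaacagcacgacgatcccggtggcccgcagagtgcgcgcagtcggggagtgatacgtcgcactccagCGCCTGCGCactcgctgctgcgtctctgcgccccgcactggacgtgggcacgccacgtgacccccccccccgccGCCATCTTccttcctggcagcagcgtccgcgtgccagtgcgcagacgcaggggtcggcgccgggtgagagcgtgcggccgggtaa
The promoter of MRPS12 (plus strand, chr19:38930694-38930993), a gene of the decoding region, is shown as one with a YY1 and an ETS match:
MRPS12: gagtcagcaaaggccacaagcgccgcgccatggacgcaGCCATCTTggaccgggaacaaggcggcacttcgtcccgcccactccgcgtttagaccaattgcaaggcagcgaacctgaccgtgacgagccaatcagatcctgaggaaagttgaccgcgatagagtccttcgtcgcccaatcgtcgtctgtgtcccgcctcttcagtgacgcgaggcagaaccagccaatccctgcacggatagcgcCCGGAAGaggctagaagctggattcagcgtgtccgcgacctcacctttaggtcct

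The YY1 and ETS motifs were more frequent at mitoribosomal promoters than at promoters of other genes. The frequency of the NRF1 motif was closer to that of the other protein-coding genes compared than to that of all promoters. The YY1 letters occurred in 20 of 69 members, or 29.0%, compared with 4.88% of 11213 other protein-coding genes compared and 3.03% of all 27305 promoters in the RefSeq table. The ETS letters occurred in 29 members, or 42.0%, compared with 2020 of the 11213 other genes and 10.7% of all promoters. The NRF1 letters occurred in 13 members, or 18.8%, compared with 14.1% and 8.05%. At least 1 of the 3 motifs was present in 47 members, or 68.1%, compared with 32.1% of the other genes and 19.2% of all promoters. A match is a description of the letters, not a bound site.

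The 47 members with a match had a median log2 ratio of -0.29, and 9 of them were at least 1.5-fold lower. The 22 members without one had a median of -0.61, and 11 were at least 1.5-fold lower. Among the other protein-coding genes the medians with and without a match were both -0.22, and the shares at least 1.5-fold lower were 27.6% and 34.6%. For the YY1 letters alone, 2 of 20 members with a match and 18 of 49 without were at least 1.5-fold lower. Among the other protein-coding genes the YY1 shares were 25.6% and 32.7%. The medians of the members lay close together, at -0.28 and -0.33. For the NRF1 letters the medians were -0.15 and -0.32. At least 1.5-fold lower were 4 of 13 members with a match and 16 of 56 without, compared with 29.1% and 32.9% of the other genes. For the ETS letters the order of the medians was the opposite, with -0.35 for members with a match and -0.14 for those without. Of these members, 7 of 29 and 13 of 40 were at least 1.5-fold lower, compared with 26.2% and 33.7% of the other genes. The medians and the counts thus did not order all 3 motifs in the same way.

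Both subunits of the mitoribosome had nearly the same median. Subunits were assigned by the uniform protein names, in which MRPS36, described above as an unusual member, counts with the small subunit. The 51 genes of the large subunit had a median log2 ratio of -0.31 and the 27 genes of the small subunit a median of -0.32. At least 1.5-fold lower were 17 genes of the large subunit (33.3%) and 6 of the small subunit (22.2%). The share was 31.2% of all genes compared and 21.3% of the 8150 genes with at least 10 TPM in both groups. After median-ratio scaling the counts of the subunits were 9 and 2, against 25.1% of all genes compared. Both members higher as deposited belong to the large subunit. The summed levels of the large subunit were 5687 and 4666 TPM and those of the small subunit 2602 and 2183 TPM, so si-FTO had 82.0% and 83.9% of the si-NC sums. By origin the medians were also close. The 46 members with a plain bacterial counterpart had a median of -0.31 and the 30 members specific to mitochondria a median of -0.34, with 15 and 8 genes at least 1.5-fold lower (32.6% and 26.7%). At least 2-fold lower with the pseudocount of 1 were 1 of the 46 (2.17%) and 4 of the 30 (13.3%). The share was 17% of all genes compared and 7.35% of the 8150 genes with at least 10 TPM in both groups. With median-ratio scaling MRPS33 was the only member to pass. Both members at least 1.5-fold higher as deposited have a bacterial counterpart. Of those that passed only after median-ratio scaling, MRPL24 and MRPL13 have one, while MRPL43, MRPL42, MRPS27 and MRPS30 are specific to mitochondria.

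Among the members with an assigned role, those of the exit tunnel lay on both sides of 0. MRPL23 had 172 TPM in si-NC against 89.0 TPM in si-FTO (log2 ratio -0.94), and MRPL4 had 180 and 113 TPM (log2 ratio -0.67). MRPL22 had 49.2 and 30.6 TPM (log2 ratio -0.67). In contrast, MRPL24 had 164 and 230 TPM (log2 ratio 0.49). MRPL45, which faces the inner membrane at the tunnel exit, had 95.9 and 87.5 TPM. Its log2 ratio was -0.13 as deposited and 0.08 after median-ratio scaling. So 3 of the 5 tunnel genes were at least 1.5-fold lower as deposited, against 31.2% of all genes. After median-ratio scaling only MRPL23 was, while MRPL4 and MRPL22 had -0.46 each and MRPL24, with 0.70, was at least 1.5-fold higher.

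The genes around the peptidyl transferase centre, where the peptide bond is made, lay close together. MRPL16 had a log2 ratio of -0.31, MRPL2 of -0.21, MRPL3 of -0.21 and MRPL27 of -0.02. All 4 differed by less than 1.5-fold, as did 67.9% of all members. The share was 64.3% of the genes with at least 10 TPM in both groups. After median-ratio scaling MRPL3 and MRPL27 had values above 0, of 0.00381 and 0.19. The genes of the stalks were spread further apart. MRPL1, of the stalk beside the exit site of the tRNAs, had 25.4 and 12.2 TPM, so that si-FTO had 48.2% of the si-NC level, the lowest ratio of the 4 stalk genes. In the stalk that recruits the translation GTPases, MRPL12 had a log2 ratio of -0.54. MRPL10, which anchors MRPL12, had -0.17, or 0.04 after median-ratio scaling, and MRPL11 had 0.16.

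In the decoding region of the small subunit, MRPS12 had 145 TPM in si-NC against 109 TPM in si-FTO (log2 ratio -0.41). MRPS5 had 119 and 108 TPM (log2 ratio -0.13), which was 0.08 after median-ratio scaling. MRPL58, a peptidyl-tRNA hydrolase that was built into the large subunit and rescues stalled ribosomes, had 84.9 and 55.6 TPM (log2 ratio -0.60, or -0.39 after median-ratio scaling). The 3 MRPS18 paralogs descend from a single bacterial protein and sit at different places of the particle. MRPS18C, the small-subunit protein at the bacterial position, had 50.6 and 30.5 TPM (log2 ratio -0.71, or -0.51 after median-ratio scaling). MRPS18A, a protein of the large subunit, had 104 and 84.6 TPM (log2 ratio -0.29). MRPS18B had 140 and 134 TPM (log2 ratio -0.06) that became 0.15 after median-ratio scaling.

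Further members at least 1.5-fold lower included MRPL28, with 296 and 159 TPM and a log2 ratio of -0.89, while MRPL20 lay just short of that threshold at -0.54. With quantile normalization MRPL20, at -0.60, and MRPL12, at -0.59, passed it. Lower members were thus found among the scarce genes, such as MRPL1, and among the abundant ones, such as MRPL28.

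Proteins of the mitoribosome that carry other symbols were compared next. These 5 genes had a median log2 ratio of -0.18, which turned to 0.03 after median-ratio scaling, and 0 of them passed 1.5-fold in either direction. Of the 8150 genes with at least 10 TPM in both groups, 64.3% also stayed within 1.5-fold as deposited, so 5 genes say little. CHCHD1 was the highest, with 65.3 and 82.4 TPM and a log2 ratio of 0.33. AURKAIP1 was the lowest, with 162 and 126 TPM and a log2 ratio of -0.36.

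The factors that build and serve the mitoribosome resembled its proteins in their medians. The 25 assembly factors, which process and modify the ribosomal RNAs and guide the subunits together, had a median log2 ratio of -0.37, and 8 were at least 1.5-fold lower (32.0%, against 31.2% of all genes compared) and 0 higher. MTERF4, which brings the methyltransferase NSUN4 to the large subunit, was the lowest, with 30.7 and 12.9 TPM and a log2 ratio of -1.19. RCC1L was the highest at 0.34. The 16 translation factors had a median of -0.28, with 4 of the 16 at least 1.5-fold lower and 0 higher. GUF1, a GTPase that acts on mitochondrial ribosomes, had 33.3 and 10.5 TPM (log2 ratio -1.58), and GFM1, an elongation factor, had 53.4 and 72.6 TPM (log2 ratio 0.43).

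The 17 mitochondrial aminoacyl-tRNA synthetases, which load tRNAs with their amino acids, had a median of -0.36. CARS2, for cysteine, had 25.7 and 62.6 TPM (log2 ratio 1.25). In all, 6 synthetase genes were at least 1.5-fold lower (35.3%) and 2 at least 1.5-fold higher (11.8%), against 31.2% and 18.8% of all genes compared. After median-ratio scaling 4 of 25 assembly factors, 1 of 16 translation factors and 3 of 17 synthetase genes were lower. Each of these shares was below the 25.1% of all genes compared. Higher were 0 assembly factors, 1 translation factor and 2 synthetase genes, against 23.4% of all genes compared. The medians of these lists of factors and synthetases were below 0 under both other scalings as well, as was the median of the mitoribosomal proteins.

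The RNAs of the mitoribosome did not move together. MT-RNR1, the RNA of the small subunit, had 1676 TPM in si-NC against 1060 TPM in si-FTO (log2 ratio -0.66). MT-RNR2, the RNA of the large subunit, had 4209 and 5678 TPM (log2 ratio 0.43). The ratio of the large to the small RNA was 2.51 for si-NC against 5.35 for si-FTO, a quantity that a common scaling factor does not change. How the libraries were depleted of ribosomal RNA or selected for poly(A) is not given in the sources used here, and its part in that ratio was not tested. Of the 13 proteins encoded by mitochondrial DNA, which are the products of this ribosome, 12 had a log2 ratio below 0, with a median of -0.47. After median-ratio scaling 8 of the 13 were below 0, with a median of -0.26. As deposited, 12279 of all 20493 genes compared had a ratio below 0. At least 1.5-fold lower as deposited were 4 of the 13 (30.8%), near the 31.2% of all genes compared. MT-ND3 was the lowest at -0.98 and MT-ND4L the highest at 0.12.

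**Figure D3:**
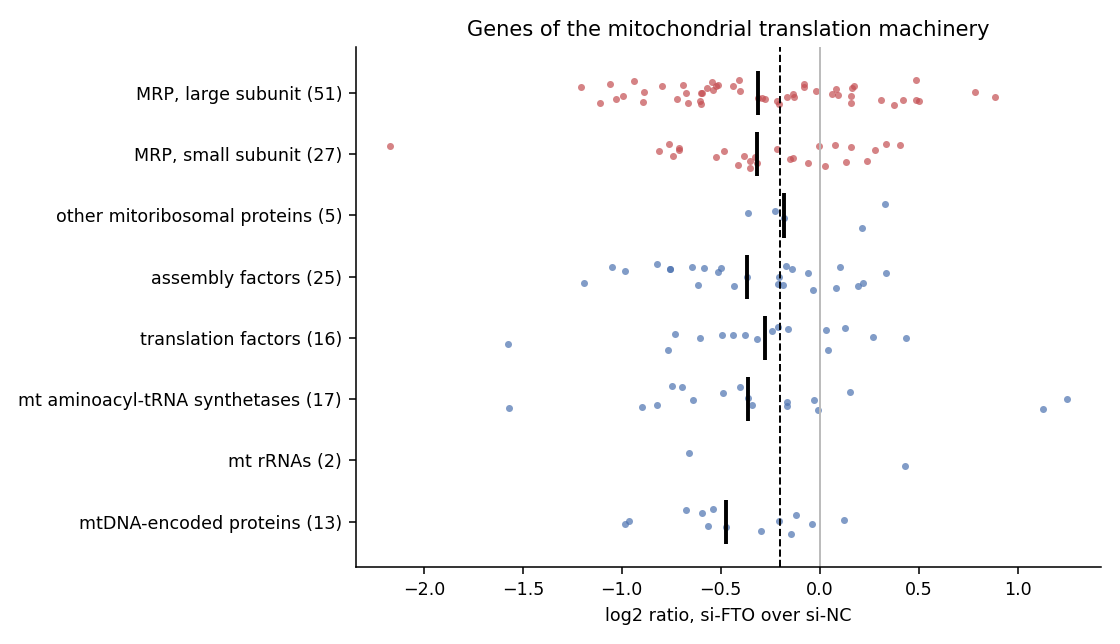
Log2 ratio, si-FTO over si-NC, of each gene of the mitoribosome and of the lists that serve it, with the number of genes in brackets. Each point is a gene, short black bars are list medians, and the dashed line is the median of all genes compared, -0.20. The lists of mitoribosomal proteins, assembly factors, translation factors and synthetases have medians between -0.28 and -0.37, and the pair of rRNAs lie on opposite sides of 0.

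Position in the genome was examined because members that share no promoter can share a region. For each member, the median log2 ratio was taken over the 20 nearest other protein-coding genes with at least 10 TPM in a group, with mitoribosomal genes left out. Across the 78 members, the own ratio and this median had a Pearson r of 0.46 and a Spearman rho of 0.31. The points share the same group means, neighbouring members share some of their neighbours, and genes are not independent replicates. Without MRPS33, MRPL36 and MRPS30, which lie at the ends of the plot, r over 75 members was 0.29 and rho 0.23, so the relation rests in part on these 3 genes. The 51 members with a neighbour median below 0 had a median of -0.41, and the 27 members with a neighbour median above 0 had a median of -0.08.

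Members and their neighbour medians were on the same side of 0 for 50 of the 78 genes. With 55 members and 51 neighbour medians below 0, many would agree without any relation between them. The count expected in that case was not calculated. Around MRPS33 on chromosome 7, the neighbour median was -0.98, and 2 of the 20 neighbours had a ratio above 0. Around MRPL55 on chromosome 1 it was -0.91, around MRPL39 on chromosome 21 it was -0.83, and around MRPL44 on chromosome 2 it was -0.58. On chromosome 5, the median was 0.97 around MRPL36, with 18 of 20 neighbours above 0, and 1.33 around MRPS30. Over the 50 nearest genes, a window chosen after seeing the data, it was 0.91 around MRPL36 but 0.35 around MRPS30. Around MRPL17 on chromosome 11 it was 0.40. Around MRPL13 on chromosome 8 it was 0.30. The remaining 4 of the 8 highest members had neighbour medians below 0, at -0.17 for MRPL43, -0.04 for MRPL24, -0.30 for MRPL42 and -0.44 for MRPS27. MRPL41 on chromosome 9 had a neighbour median of 0.08 beside its own -1.11, and MRPL23 on chromosome 11 had 0.35 beside -0.94. Over 50 genes these medians were -0.01 and -0.12, so the sign of both depends on the window. Gene copy number was not measured, and its part in these regional values was not tested.

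**Figure D4:**
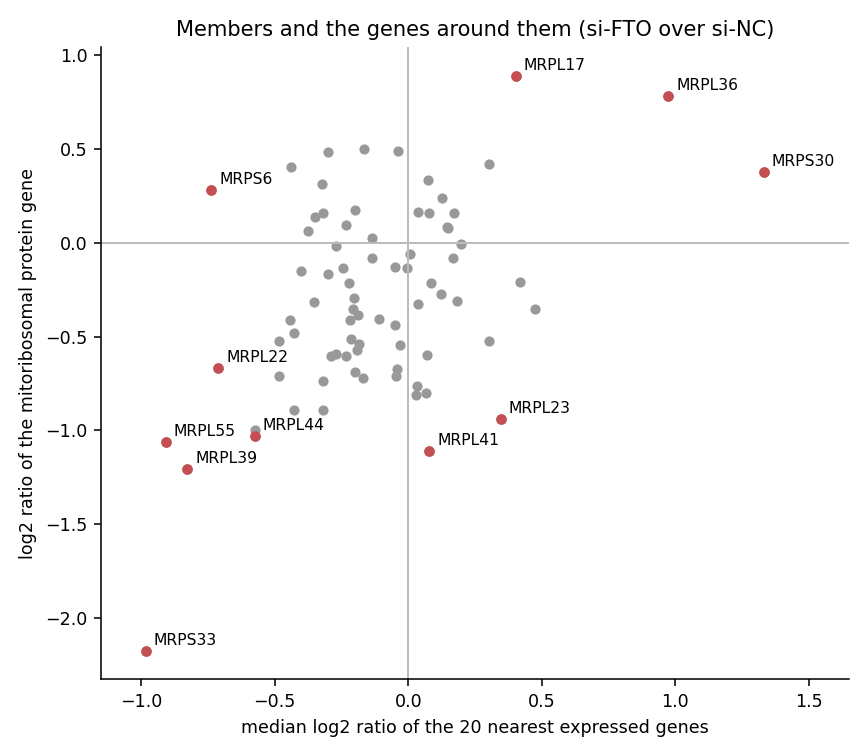
Log2 ratio, si-FTO over si-NC, of each of the 78 mitoribosomal protein genes against the median log2 ratio of its 20 nearest expressed protein-coding genes. Named points in red were picked for their place in the plot. MRPS33 lies at the lower left with -2.17 and -0.98, MRPL36 at the upper right with 0.78 and 0.97, and MRPL23 at the lower right of the origin.

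Many mitoribosomal genes start head to head with another gene. In the GENCODE annotation, 26 members have a start within 1000 bases of the start of a protein-coding gene on the opposite strand. Among 21 such pairs in which the other gene had at least 10 TPM in a group, the ratios of the 2 genes lay within 0.5 of each other in 18 pairs, or 85.7%, a gap that a common scaling factor barely changes. For comparison, on average 42.0% of the 9807 other protein-coding genes with at least 10 TPM in a group lay within 0.5 of the member of such a pair. In 6 of the 21 pairs the ratios had opposite signs as deposited. MRPL36 and NDUFS6, which encodes a subunit of respiratory complex I, had log2 ratios of 0.78 and 1.05. MRPL18 and TCP1, a subunit of the cytosolic chaperonin, had -0.72 and -0.94. MRPS12 and SARS2, the mitochondrial seryl-tRNA synthetase, had -0.41 and -0.34. A pair made of members only, MRPL46 and MRPS11, with starts 63 bases apart, had -0.08 and 0.02.

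The clearest exception was MRPL47, which had 86.9 TPM in si-NC against 65.2 TPM in si-FTO, beside NDUFB5, another complex I subunit, with 54.3 and 77.9 TPM. Their log2 ratios were -0.41 and 0.51. The other pairs more than 0.5 apart were MRPL27 with EME1 and MRPL11 with PELI3. The library kit keeps the strand, but whether strand was used in the counting is not given in the sources used here. Where annotated genes overlap, their reads may therefore be mixed. In all, 37 members overlap another protein-coding gene and 36 have a named pseudogene, 57 of the 78 having at least 1 of these. The 21 members with neither had a median log2 ratio of -0.53, farther below 0 than the -0.31 of all 78.

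**Figure D5:**
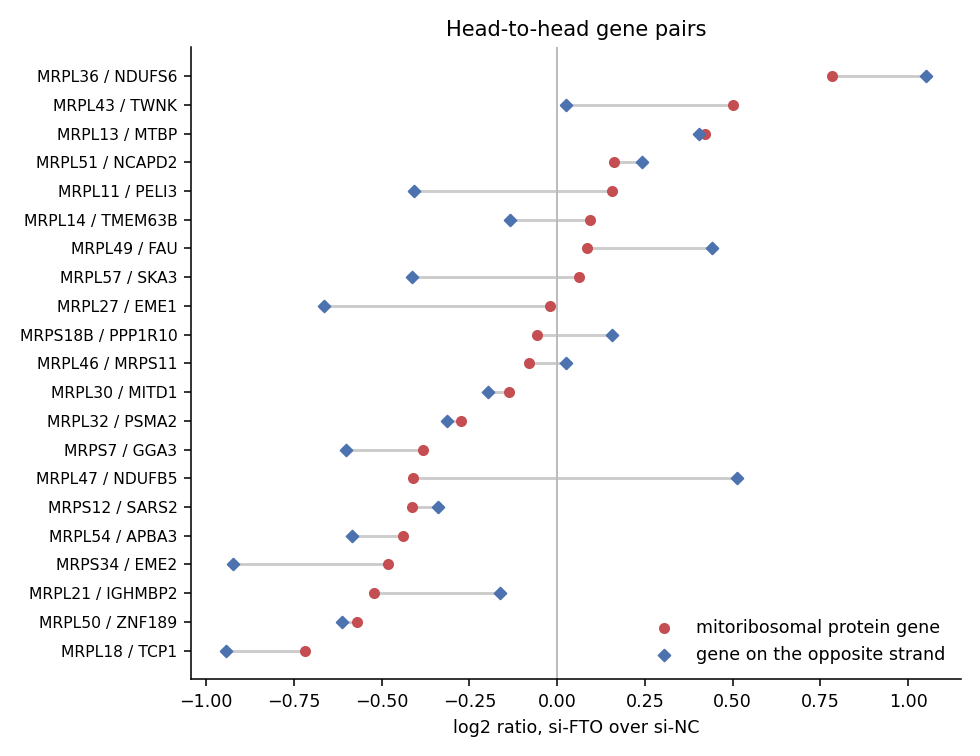
Log2 ratio, si-FTO over si-NC, of 21 mitoribosomal protein genes (red) and of the gene that starts within 1000 bases on the opposite strand (blue), each pair joined by a line. In 18 pairs the points lie within 0.5, and the longest line joins MRPL47 and NDUFB5.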

How the data were processed

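Total RNA of 3 si-NC and 3 si-FTO libraries of AGS cells was compared. The authors mapped reads to hg19 with Bowtie, whereas the submitters' processing notes name HISAT2, and quantified genes with RSEM. They deposited TPM as 1 mean per group. Their comparison columns, with log2 fold changes, p-values and q-values, and a second table of changed genes were not used. TPM keeps no depth, so the precision of each mean is unknown. Symbols matched 55726 of 58174 Ensembl identifiers, and positions came from GENCODE 44 lifted to GRCh37. Ratios used a pseudocount of 1 and genes with at least 0.5 TPM in a group. Members and lists were chosen with earlier results of these data known. Named members are the 8 highest and 8 lowest by ratio, the 5 most and 5 least abundant, those with an assigned role and the MRPS18 paralogs, some of them given by count. Listed genes are named by their highest and lowest ratio. Some items covered by this rule are not reported here. Other genes, the motifs, the pairs and the regional medians were chosen after values were seen. Alternatives were other pseudocounts, filters, scalings and fold thresholds. Calculations used Python 3.11.15, numpy 2.4.6, pandas 2.3.3 and scipy 1.17.1, and were tested on simulated data.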

Additional observations from a re-analysis of the deposited data

How the results depend on the processing

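Median-ratio scaling raised the number of members called higher from 2 to 8 and lowered the number called lower from 23 to 11, since it removes a common shift of -0.21. Quantile normalization left 2 higher and gave 25 lower, against 23.2% and 25.9% of all genes compared. A fold threshold of 2 left 0 higher and 5 lower, or 0 and 6 with a pseudocount of 0.1 as well, or 1 and 1 with median-ratio scaling as well, both combinations chosen after seeing the data. The median log2 ratio of the members lay between -0.53, without members that overlap a gene or have a named pseudogene, and -0.10, with median-ratio scaling, and was below 0 under every alternative run. The medians of both subunits and the summed level were below 0 under every alternative run as well. Of 39 named members, 6 changed sign with median-ratio scaling, each of them within 0.21 of 0 as deposited, and 0 did with quantile normalization or a pseudocount of 0.1. With 50 instead of 20 neighbours, chosen after seeing the data, Pearson r was 0.51, and without MRPS33, MRPL36 and MRPS30, also chosen after seeing the data, it was 0.29. No paired analysis was possible because the table holds 1 mean per group, and for the same reason no library could be left out. Depth is unknown, which limits what can be said of any single gene.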

Other observations

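Noncoding genes named after members had values of their own. MRPL23-AS1, an antisense gene near MRPL23, had 1.56 TPM in si-NC against 13.5 TPM in si-FTO (log2 ratio 2.50), while MRPL23 itself had -0.94. H19, the imprinted noncoding gene next to MRPL23, had 1.34 TPM in si-NC against 7791 TPM in si-FTO. MRPL20-AS1 had 14.2 and 11.5 TPM, and MRPL20-DT, which starts divergently from MRPL20, had 9.66 and 7.51 TPM. MRPS30-DT had 2.41 TPM in both groups, beside a log2 ratio of 0.38 for MRPS30. The 79 pseudogenes in the table that are named after members summed to 18.1 TPM in si-NC against 12.6 TPM in si-FTO, and 3 of them reached 1 TPM in a group. MRPS21 has the most named pseudogenes, with 8. These values were not tested.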
